A study of Mus musculus with 44 samples.

Results

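The genes described are the heat shock proteins, the DnaJ proteins and the chaperonins in ribosome-bound RNA of amygdala neurons that express corticotropin-releasing hormone (Crh). They were chosen by symbol alone, as the rows of the deposited matrix whose name starts with Hspa, Hspb, Hspd, Hspe, Hsph, Hsp90 or Dnaj, is Cct followed by a digit, or is Tcp1. The rule found 61 of 8203 genes, and no measured value entered it. All mice were CRH-TRAP animals aged 10 to 16 weeks, heterozygous for a Crh-Cre transgene and for a Cre-dependent ribosomal protein L10a fused to eGFP, so the tag marks cells in which the Crh promoter drives or once drove Cre. Tagged ribosomes were pulled down with antibodies to GFP (translating ribosome affinity purification, TRAP) from bilateral punches labelled Central Amygdala, each sample being 1 mouse. The tone-alone group (TA) heard 5 tones with the shock generator off and had 16 mice. The fear-conditioned group (FC) received 5 tones paired with shocks and had 12 mice. The extinction group (EXT) was fear-conditioned in the same way, heard 30 tones without shock in a new context on the next day, and had 16 mice. All 3 groups carried the same transgenes, were habituated to the chamber and were killed 2 h after their last session, so EXT differs from TA in the shocks, the extinction session and the added day together.

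Molecular chaperones hold, fold and refold other proteins. HSP70 proteins bind short hydrophobic stretches of a client in a cycle driven by ATP. DnaJ proteins (also called HSP40 or J proteins) bring clients to HSP70 and start the hydrolysis of ATP, and HSP110 proteins and other exchange factors release the ADP and with it the client. HSP90 takes over clients such as steroid receptors and kinases at a later stage, helped by co-chaperones. The chaperonins are closed barrels that enclose a whole protein: HSP60 (Hspd1) with its lid HSP10 (Hspe1) in mitochondria, and the 8-subunit TRiC complex (Tcp1 and the Cct genes) in the cytosol, whose best known clients are actin and tubulin. Many of these genes are transcribed by heat shock factor 1 under stress, and neurons also use constitutive members such as Hspa8 at the synapse, where Hspa8 and its J protein auxilin take clathrin off vesicles.

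The libraries held between 12802113 and 20440351 reads as recovered from the matrix, with medians of 18015590 in TA, 16977973 in FC and 15412341 in EXT. The lowest count of any member in any mouse was 53 reads. Crh itself ranged from 27.9 to 144 CPM (reads scaled to library size, here and below) in TA and from 8.87 to 79.3 in EXT, and was FDR-significantly lower in EXT (log2 fold change -0.93, and -0.32 and not called with batches as categories). Of the cell type lists, both GABAergic neuron genes present in the matrix (of 3 listed) were lower in EXT, their sum ranging from 927 to 1605 CPM in TA and from 611 to 1443 in EXT, but 0 of the 2 were called with batches as categories. Of the astrocyte markers, 1 of 5 was higher in EXT and 0 with batches as categories (summed range 162 to 953 in TA and 219 to 877 in EXT), and 0 of 6 oligodendrocyte markers (1351 to 6183 and 1805 to 13167), 0 of 2 glutamatergic markers (40.4 to 233 and 20.5 to 323) and 0 of 4 choroid plexus markers (187 to 27465 and 186 to 51048) were called by limma. All 6 microglial and all 3 endothelial markers are outside the matrix. In these pooled cells, fewer cells of a type and less RNA per cell cannot be told apart.

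Libraries of 6 EXT mice stood apart. A score for 8 mitochondrial transcripts and the nuclear RNA Malat1, the mean of their z-scores, lay between 1.81 and 2.09 in these 6 mice and reached at most 1.17 in the other 38. Malat1 alone lay between 10.05 and 11.56 log2 CPM in the 6 and between 3.12 and 9.07 in the others, while Crh lay between 3.15 and 4.56 in the 6, between 3.97 and 6.31 in the other 10 EXT mice and between 4.80 and 7.17 in TA. Of the 6 mice, 1 belonged to the batch labelled 2, 4 to batch 3 and 1 to batch 4, and 4 were male. Batches 3 and 4 held 5 and 1 EXT mice and no mouse of another group, so in them batch and group cannot be told apart. The mitochondrial and Malat1 list rose as a whole in EXT (9 of 9 genes called, summed medians of 926 CPM in TA and 3317 in EXT, 0 of 9 called with batches as categories). The part of this score in the differences below was not tested as a cause, and the estimates without the 6 mice are given beside the called genes that are described singly.

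The constitutive cytosolic chaperones led the levels. On a scale of log2 CPM per kb of exon, averaged over all 44 mice, Hsp90ab1, the constitutive cytosolic HSP90, stood highest at 8.69 ± 0.48 (SD, n = 44), followed by Hspa8, the constitutive cytosolic HSP70 (8.37 ± 0.37), and Hsp90aa1, the inducible cytosolic HSP90 (7.39 ± 0.53). These 3 genes lay at percentiles 98.8, 98.2 and 95.6 of all genes, and each differs from its neighbour in the order by less than the sum of their SDs except for the step from Hspa8 to Hsp90aa1. Chaperonin genes were also high, with Hspe1 at 7.13 ± 0.65, Cct8 at 6.84 ± 0.25, Cct5 at 6.78 ± 0.17 and Hspd1 at 6.58 ± 0.35. Levels of the other TRiC subunits went down to 4.88 ± 0.39 for Cct3. The length used is the union of all annotated exons, 6370 bases for Cct3 and 3088 for Cct8. The order on this scale therefore depends in part on the annotation, and unequal levels of the subunits cannot be read from it. The low end held Hspa13 (2.12 ± 0.38), Dnajb14 (1.67 ± 0.24), the endosomal J protein Dnajc13 (0.47 ± 0.50) and the J protein Dnajc1 (-0.48 ± 0.60). Dnajb14, Dnajc13 and Dnajc1 also have long exon unions (15741, 11938 and 11651 bases), which lowers their place. The stress-inducible Hspa1a and Hspa1b and the small heat shock gene Hspb1 are not among the 8203 genes, so they were not analysed here.

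**Figure D1:**
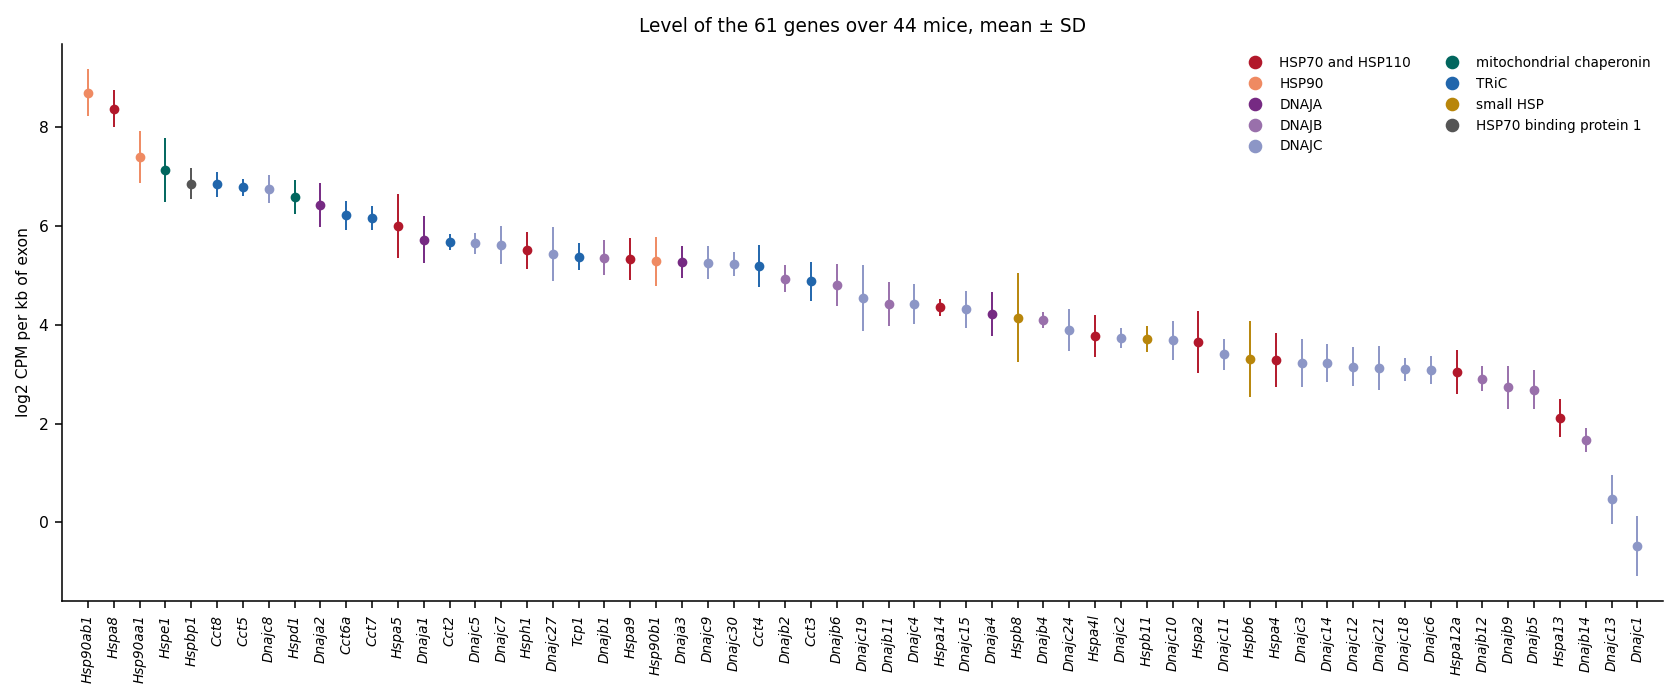
Level of each of the 61 genes, in order, as log2 CPM per kb of exon (y axis). Points are means over 44 mice, bars are SD, and colours mark the families. Hsp90ab1, Hspa8 and Hsp90aa1 stand at the left end with means of 8.69, 8.37 and 7.39, and Dnajc13 and Dnajc1 at the right end with 0.47 and -0.48.

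The comparison of EXT with TA asks which messages differ after conditioning and extinction from those after tones alone. With batch as a number and sex in the limma fit, 20 of the 61 genes fell and 5 rose at an adjusted p under 0.05. Of all 8203 genes, 11% fell and 10.4% rose, against 32.8% and 8.2% of the members. At an unadjusted p under 0.05, 24 members were lower and 7 higher, against 18.7% and 19.1% of all genes. The median log2 fold change was -0.14 over the members and 0.005 over all genes. With batches as categories, 0 of the 61 were called in either direction by limma (7 higher and 18 lower at an unadjusted p under 0.05), where 0.0244% of all genes were called lower and 0 higher, and 10.2% and 11% were higher and lower at the unadjusted threshold. In that fit all 20 genes that had fallen stayed below 0 (median -0.27 in place of -0.45). The 20 were picked from these same mice, so their sign was likely to stay. Of them 12 had an unadjusted p under 0.05, a share near the 56.2% of all 901 genes that fell. Without the 6 mice the members called were also 0 (0 higher and 8 lower at an unadjusted p under 0.05, against 2.22% and 5% of all genes), and the median of the 20 was -0.19.

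**Figure D2:**
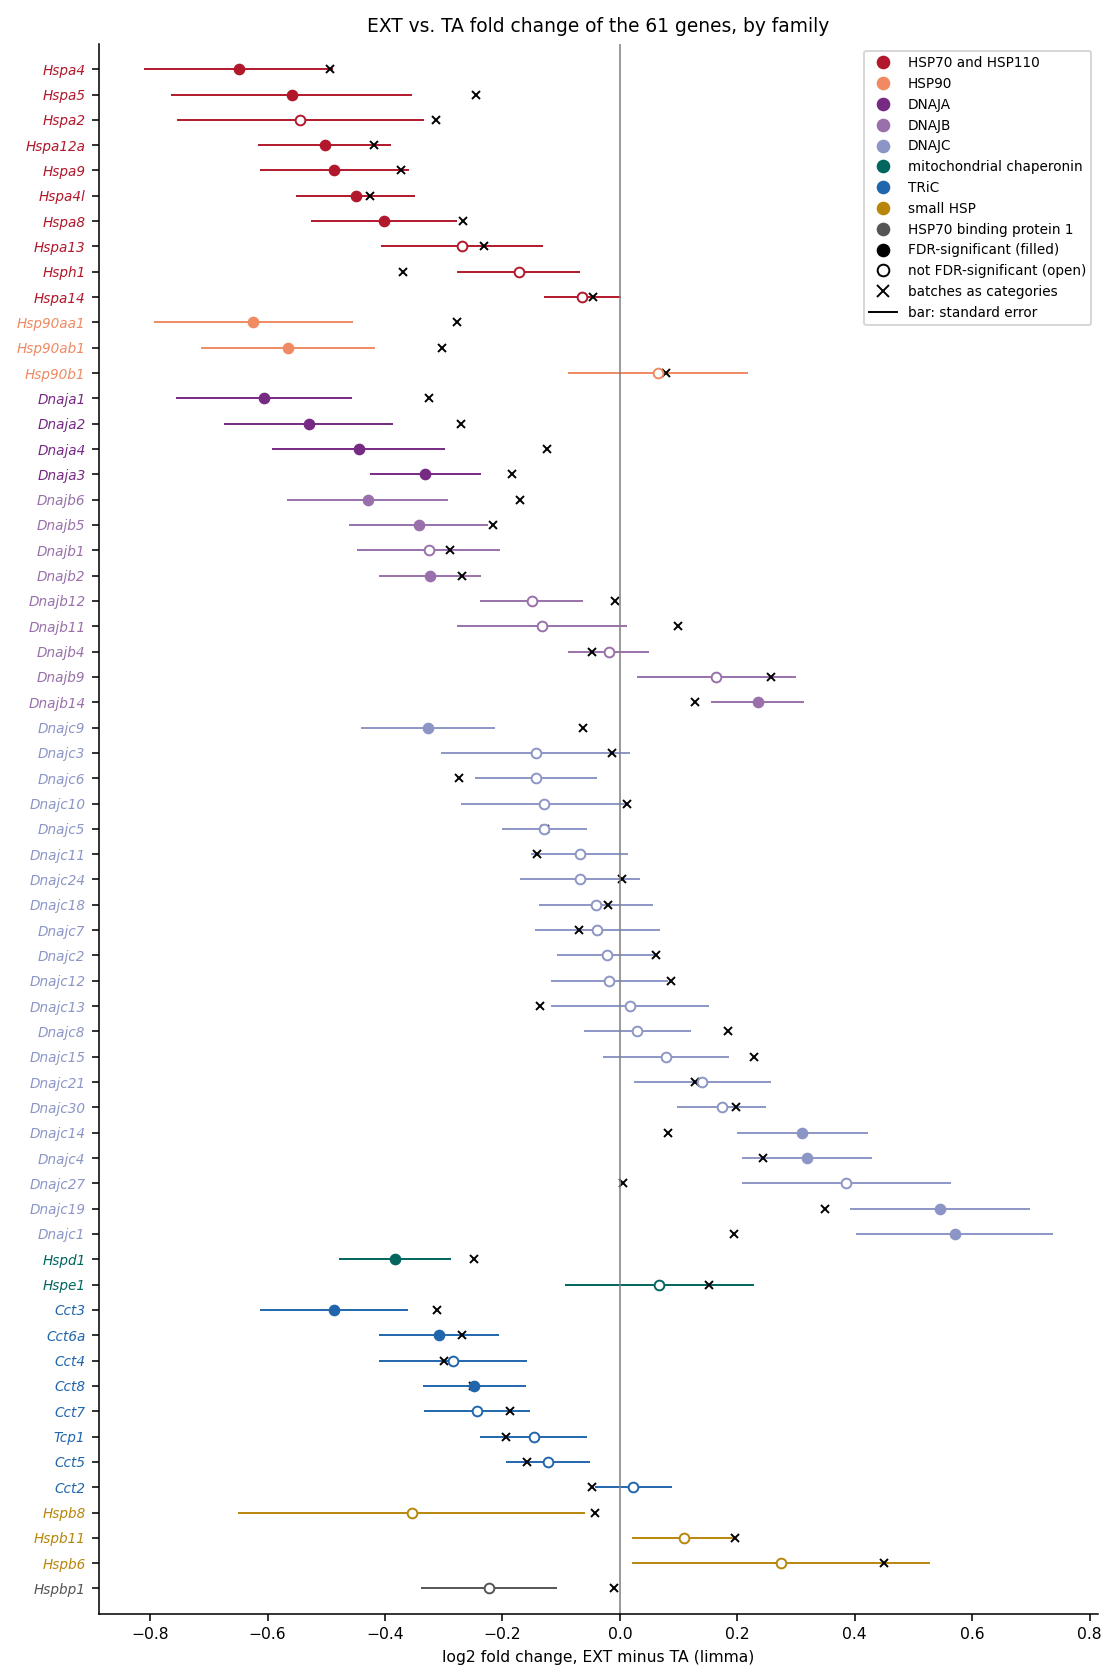
Log2 fold change, EXT minus TA, of the 61 genes (x axis), grouped by family and coloured by it. Circles are limma estimates with batch as a number, filled where FDR-significant, bars are standard errors, and crosses are the estimates with batches as categories. The HSP70, HSP110 and DNAJA rows lie left of 0 in both fits, the DNAJC rows on both sides of it, and the crosses of most filled circles lie nearer to 0.

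All 10 HSP70 and HSP110 genes had a negative log2 fold change in the fit and under each of 14 alternatives (1 of which, with a higher expression threshold, tested 9 of them). Of the 10, 6 fell FDR-significantly (60%, against 11% of all genes). Hspa4, a cytosolic exchange factor of the HSP110 family, ranged in TA from 5.53 to 6.81 log2 CPM (median 5.94), in FC from 5.27 to 6.87 (median 5.72) and in EXT from 4.42 to 6.43 (median 5.47). In 14 of 16 EXT mice it lay under the TA median and in 9 under the lowest TA mouse. The remaining EXT mice lay inside the TA range. It had the most negative fold change of the family, -0.65 ± 0.16 (SE, adjusted p = 0.013), which was -0.49 with batches as categories and -0.35 ± 0.14 without the 6 mice. Its relative Hspa4l (ENSMUSG00000025757.12, chr3:40744495-40796103, plus strand; gene spans are those of GENCODE on GRCm38) ranged from 6.98 to 8.29 in TA (median 7.37), from 7.03 to 8.07 in FC (median 7.41) and from 6.59 to 8.07 in EXT (median 6.96). Its fold change was -0.45 ± 0.10 (adjusted p = 0.013) with batch as a number and -0.43 ± 0.11 with batches as categories (adjusted p = 0.133), so for this gene the batch term hardly moved the estimate, which was -0.29 ± 0.10 without the 6 mice.

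Hspa12a (ENSMUSG00000025092.7, chr19:58795750-58943654, minus strand), a divergent HSP70 relative that is abundant in brain, lay between 6.14 and 6.82 in TA (median 6.45), between 5.15 and 6.86 in FC (median 6.23) and between 5.39 and 7.10 in EXT (median 5.99). Of the EXT mice, 10 of 16 lay below every TA mouse and 1 above every TA mouse. The fold change was -0.50 ± 0.11 (adjusted p = 0.013) and -0.42 ± 0.12 with batches as categories (adjusted p = 0.143), and -0.31 ± 0.11 without the 6 mice. Hspa8 (chr9:40800984-40810087, plus strand) ranged from 10.23 to 11.14 in TA (median 10.67), from 10.11 to 10.95 in FC (median 10.48) and from 9.55 to 11.01 in EXT (median 10.22), with a fold change of -0.40 ± 0.12 (adjusted p = 0.0236) that was -0.20 ± 0.12 without the 6 mice. The 2 other genes of the family that fell, Hspa5 and Hspa9, belong to the endoplasmic reticulum (ER) and the mitochondria and are described with those. Hspa2 (-0.54 ± 0.21, adjusted p = 0.059), Hspa13 (-0.27 ± 0.14) and Hspa14 (-0.06 ± 0.07) did not pass the test.

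Hsph1, the HSP110 gene proper (ENSMUSG00000029657.15, chr5:149614287-149636376, minus strand), behaved differently under the choice of batch term. It ranged from 7.90 to 9.12 in TA (median 8.39), from 7.86 to 8.95 in FC (median 8.32) and from 7.67 to 9.04 in EXT (median 8.23). With batch as a number its fold change was -0.17 ± 0.11 (adjusted p = 0.225), and with batches as categories -0.37 ± 0.09 (unadjusted p = 0.00017, adjusted p = 0.133). In the 6 mice that stood apart Hsph1 lay between 8.18 and 8.76, within the range of the other 10 EXT mice (7.67 to 9.04). The difference from TA was -0.52 in batch 1, -0.41 in batch 2 and -0.24 in batch 5.

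Both cytosolic HSP90 genes fell, and the ER form was not called. Hsp90aa1 (ENSMUSG00000021270.13, chr12:110690605-110702728, minus strand) lay between 9.34 and 10.03 in TA (median 9.56), between 9.13 and 9.96 in FC (median 9.60) and between 7.68 and 9.70 in EXT (median 9.16). The EXT mice formed separate sets: the 6 that stood apart lay between 7.68 and 8.74, under every other mouse, and the other 10 between 9.06 and 9.70. The fold change was -0.62 ± 0.17 (adjusted p = 0.0166), with batches as categories -0.28 ± 0.15, and without the 6 mice -0.17 ± 0.09 (adjusted p = 0.706). Hsp90ab1 (chr17:45567775-45573271, minus strand) lay between 10.19 and 10.93 in TA (median 10.45), between 10.05 and 11.03 in FC (median 10.29) and between 9.00 and 10.77 in EXT (median 10.06), and fell by 0.57 on the log2 scale (SE 0.15, adjusted p = 0.0149). In the 6 mice it lay between 9.00 and 9.77, and in the other 10 between 9.61 and 10.77, so here the sets met. Without the 6 mice the estimate was -0.20 ± 0.09. These genes have close copies elsewhere in the genome, as do Hspa8, Hspd1 and Hspe1, and how reads with several matches were counted is not given in the sources used here.

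All 4 DNAJA genes, the J proteins built most like bacterial DnaJ, fell (100%, against 11% of all genes). Dnaja1 (ENSMUSG00000028410.13, chr4:40722150-40737149, plus strand) ranged from 8.74 to 9.47 in TA (median 9.05), from 8.78 to 9.37 in FC (median 9.05) and from 7.48 to 9.17 in EXT (median 8.68). As for Hsp90aa1, the 6 mice lay apart, between 7.48 and 8.01, and the other 10 between 8.54 and 9.17, mostly inside the TA range. The fold change was -0.61 ± 0.15 (adjusted p = 0.013), -0.32 ± 0.14 with batches as categories, and -0.19 ± 0.08 without the 6 mice (unadjusted p = 0.025, adjusted p = 0.669). Dnaja2 (-0.53 ± 0.14), Dnaja4 (-0.45 ± 0.15) and the mitochondrial Dnaja3 (-0.33 ± 0.09) also fell, and without the 6 mice their estimates were -0.14, -0.10 and -0.10. Dnaja4 shares 1581 exon bases (44.1%) with Wdr61 on the opposite strand, and the counting is not stated to use strand, so its value is uncertain. Of the 12 HSP70, HSP110, HSP90 and DNAJA genes that belong to neither the ER nor the mitochondria, 9 fell and none rose (75% and 0%, against 11% and 10.4% of all genes). This set joins families already described above, so it adds no separate evidence. With batches as categories 0 of the 12 were called by limma (0.0244% of all genes lower), and without the 6 mice also 0.

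**Figure D3:**
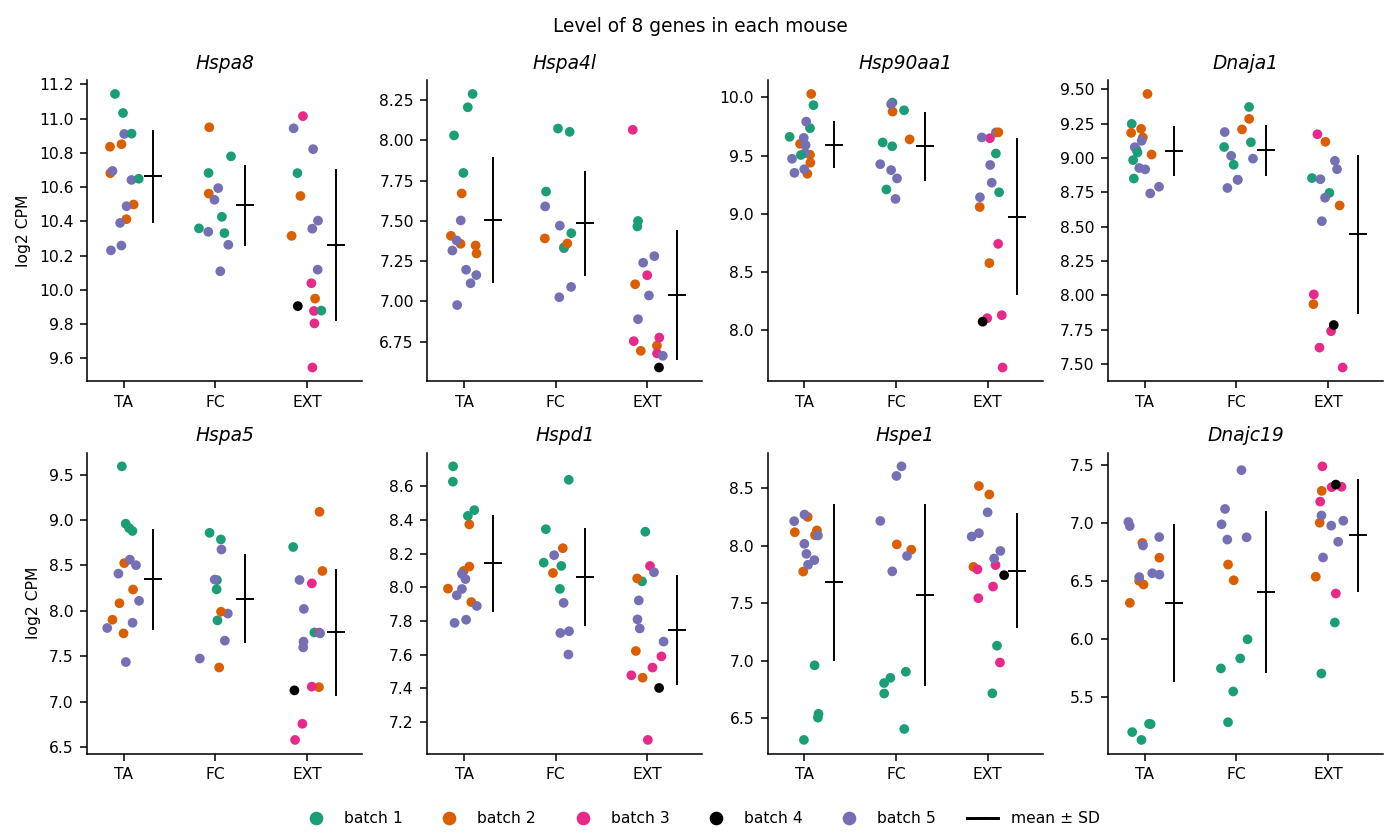
Level of 8 genes in each mouse as log2 CPM (y axis), by group. Points are mice coloured by batch, and the bar beside each group is the mean ± SD. The lowest EXT points of Hsp90aa1 and Dnaja1 come mostly from batches 3 and 4, and the batch 1 mice of every group lie low for Hspe1 and below all other mice for Dnajc19.

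DNAJB genes were mixed, with 3 of 9 lower and 1 higher (33.3% and 11.1%, against 11% and 10.4% of all genes). Dnajb6, which keeps polyglutamine proteins from aggregating, fell by 0.43 on the log2 scale (SE 0.14, adjusted p = 0.0274), but its estimate without the 6 mice was -0.06 ± 0.08. Dnajb2, a J protein abundant in neurons that also binds ubiquitin, lay between 6.72 and 7.41 in TA (median 7.17) and between 6.33 and 7.34 in EXT (median 6.89), under the TA median in 15 of 16 EXT mice. Its fold change of -0.32 ± 0.09 (adjusted p = 0.0161) was -0.27 ± 0.09 with batches as categories and -0.20 ± 0.08 without the 6 mice. Dnajb5 also fell (-0.34 ± 0.12, adjusted p = 0.0387, and -0.14 ± 0.12 without the 6 mice). Dnajb1, the main inducible cytosolic J protein, had -0.33 ± 0.12 and did not pass (adjusted p = 0.0522). Dnajb14, a J protein of the ER membrane, was higher in EXT by 0.23 ± 0.08 (adjusted p = 0.0341), and by 0.13 ± 0.08 without the 6 mice, where it was not called.

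Of 10 chaperones of the ER, 1 was lower and 2 were higher (10% and 20%, against 11% and 10.4% of all genes). Hspa5 (BiP, the HSP70 of the ER; chr2:34771970-34777547, plus strand) ranged from 7.44 to 9.59 in TA (median 8.32), from 7.38 to 8.86 in FC (median 8.11) and from 6.58 to 9.09 in EXT (median 7.76). Its fold change of -0.56 ± 0.21 lay just under the threshold (adjusted p = 0.049), was -0.25 ± 0.20 with batches as categories and -0.13 ± 0.18 without the 6 mice, and differed in sign between batches (-0.85 in batch 1, 0.13 in batch 2 and -0.23 in batch 5). Hsp90b1 (GRP94, the HSP90 of the ER) lay between 6.53 and 8.67 in TA (median 7.17) and between 6.81 and 7.98 in EXT (median 7.30), all EXT values inside the TA range, with a fold change of 0.06 ± 0.15 (adjusted p = 0.783). The sign of its difference also changed between batches. Its EXT and TA means were 7.59 and 8.24 in batch 1, 7.58 and 6.85 in batch 2, and 7.05 and 7.08 in batch 5. The J proteins of the ER lumen, which work with BiP, did not pass the test: Dnajb9 had 0.16 ± 0.14, Dnajb11 had -0.13 ± 0.14, Dnajc3 had -0.14 ± 0.16 and Dnajc10 had -0.13 ± 0.14. The 2 that rose were Dnajc1 and Dnajb14. Dnajb12, also among the 10, was not called and its estimate was negative. The set was drawn up by hand, and a difference between membrane and lumen was not tested.

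In mitochondria 3 of 9 genes fell and 2 rose (33.3% and 22.2%, against 11% and 10.4% of all genes). Hspa9 (mortalin, the matrix HSP70) lay between 7.20 and 8.09 in TA (median 7.65), between 6.98 and 7.93 in FC (median 7.50) and between 6.48 and 8.28 in EXT (median 7.02), with 10 of 16 EXT mice below every TA mouse. It fell by 0.49 on the log2 scale (SE 0.13, adjusted p = 0.0149), and the estimate was -0.37 ± 0.14 with batches as categories and -0.25 ± 0.12 without the 6 mice. The matrix chaperonin Hspd1 (HSP60; ENSMUSG00000025980.14, chr1:55077835-55088243, minus strand) ranged from 7.79 to 8.72 in TA (median 8.06), from 7.60 to 8.64 in FC (median 8.11) and from 7.09 to 8.33 in EXT (median 7.72). Its fold change was -0.38 ± 0.10 (adjusted p = 0.0131), -0.25 ± 0.09 with batches as categories, and -0.18 ± 0.08 without the 6 mice. Its lid Hspe1 (HSP10; ENSMUSG00000073676.4, chr1:55088132-55091307, plus strand) ranged from 6.31 to 8.27 in TA (median 7.97), from 6.41 to 8.69 in FC (median 7.85) and from 6.72 to 8.52 in EXT (median 7.83). Its fold change was 0.07 ± 0.16 (adjusted p = 0.785) and the groups overlapped almost completely.

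Hspe1 was low in 1 batch in every group. The 11 mice of batch 1, from all 3 groups, had a mean of 6.71 (range 6.31 to 7.13), and the other 33 a mean of 8.01 (range 6.99 to 8.69). Hspd1 went the other way, with means of 8.35 (range 7.99 to 8.72) in batch 1 and 7.85 (range 7.09 to 8.37) in the other 33. The log2 difference Hspd1 minus Hspe1 was 0.46 ± 0.93 in TA (SD, n = 16), 0.49 ± 0.98 in FC (n = 12) and -0.04 ± 0.67 in EXT (n = 16). The spread within a group comes largely from batch 1, where the difference averaged 1.98 in TA, 1.51 in FC and 1.26 in EXT, against means between -0.55 and 0.17 in batches 2 and 5. Taken batch by batch (1, 2 and 5), the EXT mean less the TA mean was -0.72, -0.57 and -0.12, of one sign in each, and the FC mean less the TA mean -0.47, 0.14 and -0.31. The genes lie head to head and share 112 exon bases, which are 4.24% of Hspd1 and 7.6% of Hspe1.

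Hspd1 and Hspe1 are transcribed in opposite directions from neighbouring starts. The region is shown because Hspd1 was called in EXT vs. TA and Hspe1 was not, a difference that was not itself tested. A heat shock element is a row of GAA units in alternating orientation, to which heat shock factor 1 binds. Windows of 250 bases before and 50 after a RefSeq start (GRCm38.p6) were matched for 49 of the 61 genes. The genes without a window, among them Hspa8, Hsp90aa1, Hsp90ab1 and Hspa9, were not searched. Both strands were searched for 3 units in a row (GAANNTTCNNGAA or TTCNNGAANNTTC), for the facing pair GAANNTTC and for the opposed pair TTCNNGAA, of which the longer letters contain the shorter. The row of 3 units was in windows of 4 of 49 members (8.16%: Dnajb6, Hspd1, Hspe1 and Hsph1) and of 0.662% of 27025 genes. For Hspd1 and Hspe1 it is the same stretch, counted for each gene. The facing pair was in 20.4% of the members and 9.04% of all genes, and the opposed pair in 16.3% and 9.6%. A match of letters is a description and not a bound site. The 3 stretches below hold the row of 3 units in capitals, the first with 2 overlapping rows, and are printed 5′ to 3′ on the strand of the named gene.
Hspe1, chr1:55087898-55088147, plus strand: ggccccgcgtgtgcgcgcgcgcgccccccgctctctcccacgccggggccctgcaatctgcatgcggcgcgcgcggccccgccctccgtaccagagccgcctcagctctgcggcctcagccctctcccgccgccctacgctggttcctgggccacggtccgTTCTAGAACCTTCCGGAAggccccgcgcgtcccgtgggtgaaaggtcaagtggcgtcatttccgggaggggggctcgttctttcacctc
Dnajb6, chr5:29735648-29735897, plus strand: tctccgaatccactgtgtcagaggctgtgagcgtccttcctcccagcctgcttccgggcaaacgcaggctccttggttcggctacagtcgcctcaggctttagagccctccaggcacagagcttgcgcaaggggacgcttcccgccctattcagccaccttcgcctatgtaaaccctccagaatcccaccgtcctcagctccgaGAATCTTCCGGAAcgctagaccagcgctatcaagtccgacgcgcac
Hsph1, chr5:149636279-149636308, minus strand: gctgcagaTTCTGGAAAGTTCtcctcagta
In the first stretch the capitals lie 89 to 72 bases before the Hspe1 start (55088148). The same letters fall in the window of an Hspd1 start on the other strand (55087932). Hspd1 has another RefSeq start at 55088243, from which its transcript runs over the Hspe1 start. The window of that start shares 4 bases with the Hspe1 window and holds 0 rows of 3 units. In the second they lie 46 to 34 bases before the Dnajb6 start, and in the third 15 to 27 bases after an Hsph1 start. Across these 4 genes the EXT minus TA fold changes were -0.43 for Dnajb6, -0.38 for Hspd1, 0.07 for Hspe1 and -0.17 for Hsph1.

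TRiC subunits were lower or near 0. Of 8 subunits 3 fell (Cct3, Cct6a and Cct8) and none rose (37.5% and 0%, against 11% and 10.4% of all genes). With batch as a number 7 of 8 estimates were negative. All 8 were negative with batches as categories and 6 had an unadjusted p under 0.05, the sign of Cct2 being the one that changed (0.02 against -0.05). Cct3 (ENSMUSG00000001416.13, chr3:88297116-88321767, plus strand) ranged from 7.39 to 8.01 in TA (median 7.71), from 7.37 to 8.06 in FC (median 7.67) and from 6.45 to 8.08 in EXT (median 7.33), with 10 of 16 EXT mice below every TA mouse. Its fold change was -0.49 ± 0.13 (adjusted p = 0.0148), -0.31 ± 0.12 with batches as categories and -0.19 ± 0.09 without the 6 mice. Cct8 lay between 8.23 and 8.79 in TA (median 8.56) and between 7.97 and 9.04 in EXT (median 8.29), and its estimate was -0.25 ± 0.09 in both fits (adjusted p = 0.0438 with batch as a number and 0.157 with categories). Cct8 had -0.16 ± 0.10 when the 6 mice were left out. Cct6a fell by 0.31 (SE 0.10, and -0.19 ± 0.10 without the 6 mice) and shares 12.5% of its exon bases with Psph on the opposite strand. Cct7 had -0.24 ± 0.09 and missed the threshold narrowly, Cct4 had -0.28 ± 0.13, Tcp1 -0.15 ± 0.09 and Cct5 -0.12 ± 0.07.

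DNAJC genes, whose J domain is joined to many different other domains, supplied 4 of the 5 genes that rose and 1 that fell, out of 21. That is 19% higher and 4.76% lower, against 10.4% and 11% of all genes. Dnajc19, a part of the motor that pulls proteins into the mitochondrial matrix, ranged from 5.13 to 7.01 in TA (median 6.55), from 5.28 to 7.46 in FC (median 6.58) and from 5.70 to 7.49 in EXT (median 7.01), and rose by 0.54 ± 0.15 (adjusted p = 0.0169). It too was low throughout batch 1: 5.13 to 6.14 in its 11 mice and 6.31 to 7.49 in the other 33, the only member whose batch 1 mice lay below all others. The estimate was 0.35 ± 0.11 with batches as categories (unadjusted p = 0.0036) and 0.26 ± 0.15 without the 6 mice, and EXT minus TA was 0.71, 0.38 and 0.16 in batches 1, 2 and 5. Dnajc1 lay between 2.51 and 3.75 in TA (median 2.81) and between 2.55 and 4.49 in EXT (median 3.31). All 6 mice that stood apart lay between 3.95 and 4.49, above every TA mouse, and the other 10 between 2.55 and 3.52. The fold change of Dnajc1 was 0.57 ± 0.17 (adjusted p = 0.0193) with all mice and 0.14 ± 0.12 without the 6. Dnajc4 rose by 0.32 ± 0.11 and Dnajc14 by 0.31 ± 0.11, the latter sharing 17.0% of its exon bases with Ormdl2 on the opposite strand, and without the 6 mice they had 0.13 ± 0.10 and 0.04 ± 0.07. The gene that fell was Dnajc9 (-0.33 ± 0.11, adjusted p = 0.0402), a histone chaperone, whose estimate was -0.06 with batches as categories and -0.03 without the 6 mice. The remaining J protein genes did not pass the test, their estimates going from -0.15 ± 0.09 for Dnajb12 to 0.39 ± 0.18 for Dnajc27, which with batches as categories was 0.005. Among them are the mitochondrial Dnajc30 (0.17 ± 0.08), Dnajc15 (0.08 ± 0.11) and Dnajc11 (-0.07 ± 0.08), and the ribosome-bound Dnajc2 (-0.02 ± 0.08).

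J proteins of synaptic vesicles did not pass the test. Dnajc5, the cysteine string protein that keeps vesicle release proteins folded, lay between 8.24 and 8.81 in TA (median 8.56) and between 8.19 and 8.78 in EXT (median 8.40), under the TA median in 14 of 16 EXT mice, with a fold change of -0.13 ± 0.07 (adjusted p = 0.187). Dnajc6, neuronal auxilin, had -0.14 ± 0.10 with batch as a number (adjusted p = 0.314) and -0.27 ± 0.11 with batches as categories (unadjusted p = 0.017). Dnajc7, a J protein that binds both HSP70 and HSP90, had -0.04 ± 0.11. The 3 genes with small heat shock names did not pass either, with 0.27 ± 0.25 for Hspb6, -0.36 ± 0.29 for Hspb8 and 0.11 ± 0.09 for Hspb11, which despite its name is a part of the intraflagellar transport machinery of cilia. Hspbp1, an exchange factor of HSP70 that the symbol rule also took in, had -0.22 ± 0.12.

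Batches 1, 2 and 5 held both groups, with 4, 5 and 7 TA mice and 2, 3 and 5 EXT mice. Of the 20 genes that fell, 14 were lower in EXT in each of the 3 batches, and among all 901 genes that fell 71.6% were. The share of the members is near that of the other genes. Of the 5 genes that rose, 3 were higher in each batch, against 68.6% of all 854 genes that rose. Batch 5, which held the most mice of both groups and none of the 6 that stood apart, gave the smaller differences: -0.10 for Hsp90aa1, -0.15 for Dnaja1, 0.01 for Hspa8 and -0.19 for Hspa4, but -0.33 for Hspa12a, -0.25 for Hspa9 and -0.21 for Hspa4l.

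**Figure D4:**
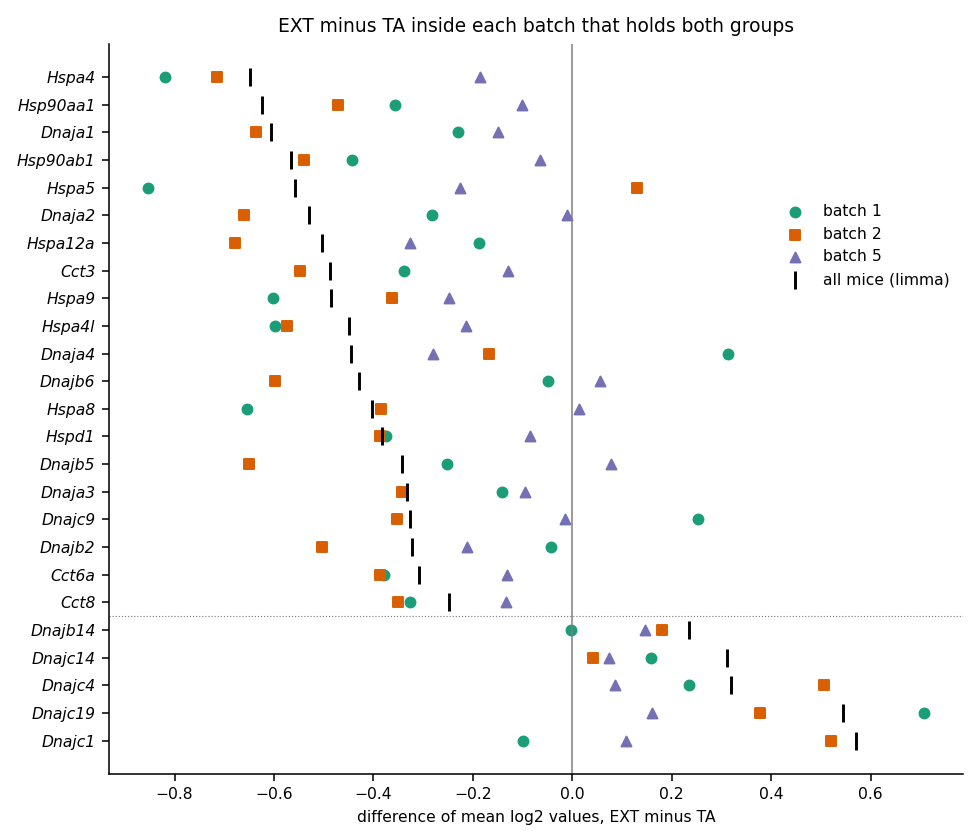
Difference of mean log2 values, EXT minus TA (x axis), inside batches 1, 2 and 5 for the 25 genes called with all mice, with the limma estimate as a vertical tick. Above the dotted line are the 20 genes that fell, of which 14 have all 3 symbols left of 0, and below it the 5 that rose. The batch 5 triangles mostly lie nearest to 0.

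The 6 mice that stood apart lay low in most of the genes that fell. In 12 of the 20 genes that fell, all 6 mice lay below the lowest TA mouse, and in 20 of 20 the EXT mean of batches 3 and 4 lay below that of the other batches. Among all 901 genes that fell these shares were 60.4% and 93.5%, near those of the members, and the calls themselves were made with these mice in the EXT group. Without the 6 and with batches as categories, 3 members were FDR-significant, all lower, where 1% of all genes were lower and 0.561% higher: Hspa4l at -0.37 ± 0.08, Hsph1 at -0.37 ± 0.08 and Hspa12a at -0.40 ± 0.09 (adjusted p = 0.0465 for each). The members at an unadjusted p under 0.05 in that fit were 7 higher and 17 lower (11.4% and 12.4% of all genes). Hspa4 was next (-0.43 ± 0.12, adjusted p = 0.0555). These 4 are HSP110 or divergent HSP70 genes, but other families followed closely. In the same limma fit the smallest adjusted p was 0.0624 in TRiC, 0.0708 in DNAJC and 0.0770 in DNAJA. DNAJC went both ways, with 5 of 21 genes higher and 3 lower at an unadjusted p under 0.05. Of the 8 TRiC subunits, 4 were lower at an unadjusted p under 0.05. Hsp90aa1 (-0.18 ± 0.09) and Dnaja2 (-0.16 ± 0.08) were not called. Whether the 3 differ from the others in this respect was not tested, and this way of leaving mice out was chosen after their libraries had been seen.

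FC vs. TA asks what conditioning alone left 2 h later. By limma 0 of the 61 genes were FDR-significant (and 0 of all genes), with 0 higher and 5 lower at an unadjusted p under 0.05, against 4.22% and 6.18% of all genes. The 5 were Dnajb5 (-0.34 ± 0.11, unadjusted p = 0.0044), Hspa12a (-0.29 ± 0.11), Hspa4 (-0.29 ± 0.12), Hspa8 (-0.19 ± 0.09) and Dnajc5 (-0.19 ± 0.09), each with an adjusted p of 0.355 or more. For Dnajb5 the mean was 5.47 ± 0.26 in TA (SD, n = 16) and 5.14 ± 0.47 in FC (SD, n = 12), and 9 of 12 FC mice lay under the TA median. Upward, the smallest p were those of Dnajc8, a J protein of the spliceosome (0.11 ± 0.07, unadjusted p = 0.113), and Dnajc21, which serves ribosome assembly (0.19 ± 0.12, unadjusted p = 0.124). With batches as categories 2 members were higher and 5 lower at the unadjusted threshold (8.61% and 8.2% of all genes), Dnajc19 among the higher (0.29 ± 0.09, unadjusted p = 0.0027, adjusted p = 0.133). All 10 HSP70 and HSP110 estimates were negative here too, except that of Hspa14 when library size was a covariate. EXT and FC were both compared with the same TA mice, so their estimates are not independent. For Hsp90aa1 (-0.03), Dnaja1 (0.001) and Dnaja2 (0.005) the FC estimates lay near 0, and over the 20 genes that fell in EXT the FC median was -0.09.

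EXT vs. FC gave 0 FDR-significant members by limma (0 of all genes), with 3 higher and 13 lower at an unadjusted p under 0.05, against 11% and 8.35% of all genes. The estimates with the smallest p were those of Dnajb1 (-0.36 ± 0.10, unadjusted p = 0.0015) and Dnaja1 (-0.61 ± 0.18, unadjusted p = 0.0016), each with an adjusted p of 0.219. At the unadjusted threshold, batches as categories left 0 higher and 3 lower (2.22% and 1.97% of all genes), and without the 6 mice 0 and 1 (0.853% and 1%). For Dnajb1 the estimate with batches as categories was also -0.36.

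The sexes were compared with the EXT minus TA contrast, taking sex from the labels. In males 1 member, Hspa12a, was FDR-significantly lower (-0.63 ± 0.12, adjusted p = 0.0363), where 0.0731% of all genes were lower and 0.0122% higher. At an unadjusted p under 0.05, 6 members were higher and 22 lower in males (13.4% and 15.6% of all genes). With batches as categories limma called 0 members in males (3 higher and 7 lower unadjusted, against 4.97% and 7.51% of all genes), where 0.0122% of all genes were lower. Without the 6 mice it also called 0 in males (2 and 9 unadjusted, against 2.9% and 7.52%). In females 0 were called by limma (3 higher and 8 lower unadjusted, against 8.9% and 5.99% of all genes). The female estimate for Hspa12a was -0.31 ± 0.22, and the difference between the sexes, from a separate fit of both sexes with an interaction term, was -0.30 (unadjusted p = 0.198). Over the members 0 interactions passed by limma, with 3 higher and 1 lower in males at an unadjusted p under 0.05 (2.23% and 1.9% of all genes). Of these Hspa13 had the smallest p (0.02 in males, -0.76 in females, unadjusted p = 0.0040, adjusted p = 0.998).

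Other genes of the folding pathways were read from a list of 60 that are in the matrix, where 13 fell and 4 rose with batch as a number (21.7% and 6.67%, against 11% and 10.4% of all genes). With categories for batch 0 were called by limma, and 7 were higher and 9 lower at an unadjusted p under 0.05, near the 10.2% and 11% of all genes. Without the 6 EXT mice that stood apart 0 were called with batch as a number, and 1 with batches as categories, the prefoldin gene Pfdn5 (0.24, adjusted p = 0.0478). The 22 co-chaperones of HSP70 and HSP90 held most of the calls, with 10 lower and 1 higher. Fkbp4, a prolyl isomerase that links HSP90 to steroid receptors, fell by 0.62 (SE 0.14, adjusted p = 0.013), Cdc37, which loads kinases onto HSP90, by 0.51 (SE 0.13), and Stip1 (HOP), which joins HSP70 to HSP90, by 0.45 (SE 0.11). These 3 had -0.27 ± 0.09, -0.16 ± 0.07 and -0.25 ± 0.11 without the 6 mice. Bag1, an exchange factor of HSP70, rose by 0.35 ± 0.11 (0.16 ± 0.11 without the 6 mice). Of 9 prefoldin genes and TRiC partners 2 rose, Pfdn2 (0.77 ± 0.21) and Pdcl3 (0.54 ± 0.14), and none fell, their estimates without the 6 mice being 0.16 and 0.17. Of 17 genes of ER folding and stress only Ddit3 was called (0.61 ± 0.16, adjusted p = 0.0151, and 0.21 ± 0.12 without the 6 mice), the transcription factor CHOP. Of 10 genes of mitochondrial protein quality control 3 fell: Afg3l2 (-0.54 ± 0.14), the mitochondrial HSP90 Trap1 (-0.43 ± 0.13) and Clpx (-0.37 ± 0.13), with -0.22, -0.21 and -0.15 without the 6 mice. Heat shock factor 1 itself (Hsf1) had a mean of 5.85 ± 0.17 in TA and 5.86 ± 0.21 in EXT, with a fold change of 0.02 ± 0.08.

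Members that work together were compared mouse by mouse, after the mean of each batch and group was taken from every value, in 39 mice of the 8 cells with at least 3 mice. This asks whether mice high in one gene were high in its partner, for 6 pairs. No other pairs were compared, so whether partners move together more than other members do was not tested. Hsp90aa1 and Hsp90ab1 had Pearson r = 0.89 and Spearman rho = 0.87, and Hspa5 and Hsp90b1, the main chaperones of the ER, r = 0.80 and rho = 0.83. Each had a permutation p of 1e-05, the smallest that the 100000 permutations can give, and an adjusted p of 3e-05, and without the 2 mice farthest out r was 0.83 and 0.84. So the ER pair moved together between mice although only Hspa5 was called between groups. Hspa8 and Dnaja1 had r = 0.68 and rho = 0.52 (adjusted permutation p = 0.0058 and 0.0065), which without the 2 farthest mice was r = 0.42. Tcp1 and Cct2 had r = 0.40 and rho = 0.51 (adjusted permutation p = 0.041 and 0.0065; r = 0.59 without 2 mice). Hsp90aa1 and Hsph1 had r = 0.34 and rho = 0.32 (adjusted permutation p = 0.11 for both; r = 0.25 without 2 mice). Hspd1 and Hspe1, partners of one chaperonin, had r = -0.07 and rho = 0.01 (adjusted permutation p = 0.74 and 0.94; r = 0.16 without 2 mice). Without the 6 mice, in 31 mice, r was 0.81 for the HSP90 pair, 0.88 for the ER pair, 0.46 for Hspa8 and Dnaja1, 0.44 for Hsp90aa1 and Hsph1, 0.34 for Tcp1 and Cct2 and 0.09 for Hspd1 and Hspe1.

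**Figure D5:**
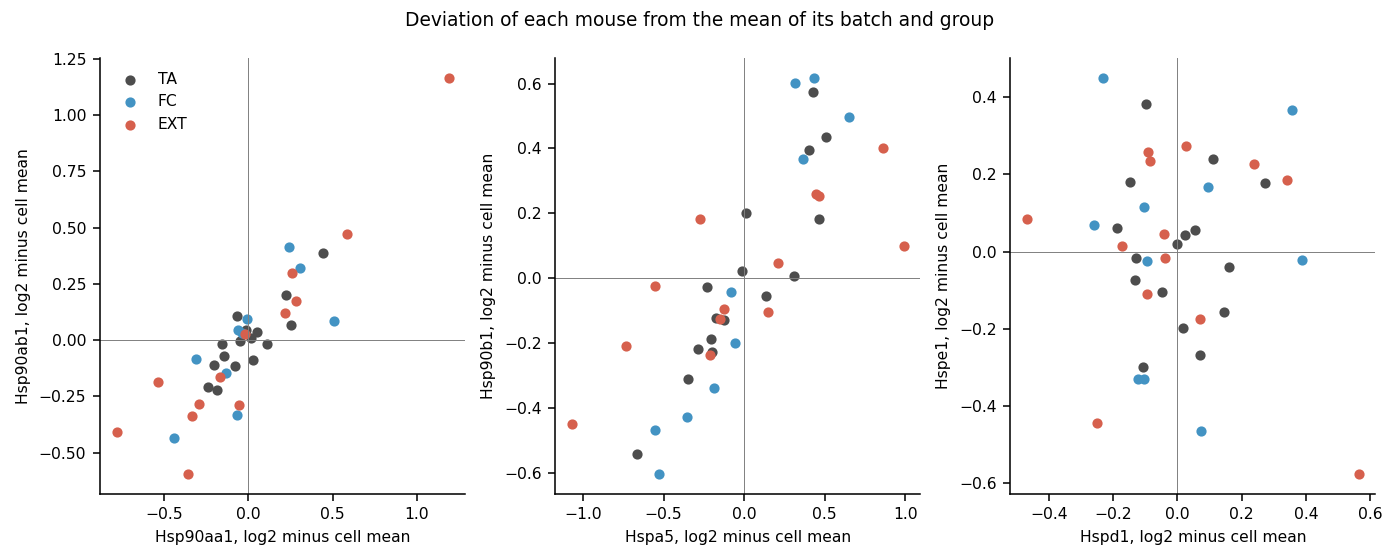
Deviation of each mouse from the mean of its batch and group, in log2 CPM, for 3 of the pairs, with the first gene on the x axis and the second on the y axis. Points are the 39 mice, coloured by group. The points of Hsp90aa1 and Hsp90ab1 (r = 0.89) and of Hspa5 and Hsp90b1 (r = 0.80) lie along a rising line, and those of Hspd1 and Hspe1 (r = -0.07) do not.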

How the data were processed

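Per the labels and the study's methods, the authors trimmed 50-base paired reads with Trimmomatic 0.36, aligned them with STAR to GRCm38, counted reads per gene (the counting tool is not given in the sources used here), used edgeR on those counts, dropped genes under a CPM minimum and deposited 1 matrix of voom log2 values (log2 CPM with an offset of 0.5). The authors removed outlying samples before depositing. Solving the deposited log2 values for whole reads gave whole numbers in 360932 of 360932 values (tolerance 0.02 reads) and with them each library size. All 44 columns carry the same log2 unit.

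Each comparison was fitted with limma 3.58.1 in R 4.3.3 over all 8203 genes, with batch and sex as terms as in the study's methods, which do not say how batch was coded. Batch entered as a number, and p-values were adjusted by Benjamini and Hochberg (two-sided, threshold 0.05). Each fit was repeated with batches as categories and with the other choices given under the dependence on processing. The fitting steps were tested on simulated data. Those data held no batch effect and no libraries that stood apart, so they did not test how batch should be coded. The mitochondrial and Malat1 score is the mean z-score of 9 genes, and 6 EXT mice had a score over 1.5. Levels per kb used the union of annotated exons in GENCODE release 21 of GRCm38. Each sample is a separate mouse, so the spread includes that between animals. Correlations used 100000 permutations within batch and group.

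The members and lists were chosen with earlier results of these data known. Named genes were the 34 in the matrix of 37 listed by role, the members that ranked first by p on either side (5 a side for EXT vs. TA, 2 for FC vs. TA), and 3 a side from the pathway list, 48 in all. Members beyond these are given by count or value, and pathway genes beyond these were named after their values were seen. Promoter windows and start sites were those of RefSeq.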

Additional observations from a re-analysis of the deposited data

How the results depend on the processing

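The 20 members called lower and 5 called higher in EXT vs. TA stayed within 1.5 times those counts with no batch term, all 3 groups in 1 fit, median-centred or quantile-normalized values, a pseudocount of 5 reads, voom weights and trended and robust variances. Both counts were 0 with batches as categories, without batches 3 and 4, with library size or the mitochondrial and Malat1 score as a covariate, and without the 6 EXT mice. Without the 6 mice and with batches as categories, 3 were lower and 0 higher, and among genes of mean log2 of at least 5, 3 of 52 members were higher. The 1 lower member in males became 0 with batches as categories and without the 6 mice. The cause of the lost calls was not tested. In the other comparisons the counts stayed at 0. Members had a median of 2147 reads and at least 53. Of 668 alternative values of the 48 named genes, 468 kept their direction and side of the threshold. Of the rest, 175 were no longer past it, 10 newly passed it and 15 changed sign. The sign changes fell on genes with estimates from -0.14 to 0.07, the lower end being near the member median of -0.14. These were Dnajb11 (-0.13; 0.10 with categories, 0.0799 without batches 3 and 4, 0.0761 without the 6 mice, 0.12 without them and with categories, 0.0150 with the score as covariate), Dnajc3 (-0.14; 0.0309 without the 6 mice and 0.0409 with categories too), Hspe1 (0.07; -0.10 with library size), Dnajc8 (0.03; -0.0259 quantile-normalized) and Cct2 (0.02; -0.0481, -0.0439, -0.0361, -0.0593 and -0.0321 under the settings named for Dnajb11 in that order, and -0.0012 quantile-normalized). Among pairs, Hspd1 and Hspe1 had r = 0.19 without batches 3 and 4 and 0.0885 without the 6 mice, Hsp90aa1 and Hsph1 had r = 0.44 with batch means alone taken off (adjusted permutation p = 0.011), Hspa8 and Dnaja1 had r = 0.37 without batches 3 and 4 (adjusted permutation p = 0.11), and Tcp1 and Cct2 had r = 0.35 without those batches (0.11) and 0.34 without the 6 mice (adjusted permutation p = 0.12). All fits without the 6 mice were chosen after seeing the data. No paired analysis was possible because the labels give the groups no shared replicate numbers.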
